A study of Rattus norvegicus with 40 samples.

Results

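Expression of 10 genes of mucosal antimicrobial defence and the acute phase was followed in the developing lung and intestine of Wistar rat embryos. They are the lectins Reg3a, Reg3b and Reg3g, the phospholipase Pla2g2a, the lipocalin Lcn2, the calcium-binding proteins S100a8 and S100a9, the protease inhibitor Slpi, the antibody receptor Pigr and the serum amyloid Saa3. Members were the probe sets (groups of short oligonucleotides for a transcript) that the platform annotation assigns to these symbols. All 10 were on the array, each with 1 probe set, among 14217 genes measured. The groups were whole lung at gestational day 20 (E20) and day 16 (E16) and whole intestine at E20 and E16, with 10 arrays each; the labels name no treatment or mutation, and all embryos were of 1 strain. Tissue of several siblings was frozen, and the design text speaks of 10 embryos at each age, so whether an array holds 1 embryo or several is not settled. The sex-linked transcripts Xist and Eif2s3y had log2 SDs of 3.29 to 4.69 within the groups, so sex varied between arrays. Its part in the values was not tested. Litters are not named, and age and litter cannot be told apart. RNA amounts of 2 µg for lung and 1 µg for intestine were labelled, so organ and RNA amount cannot be told apart, and in whole organs neither can more cells of a type and more RNA per cell.

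Epithelia that face microbes protect themselves with secreted proteins. Reg3 lectins bind bacterial cell walls, secreted phospholipase A2 cuts bacterial membrane lipids, lipocalin 2 withholds iron by binding bacterial siderophores, and the S100a8 and S100a9 proteins pair as calprotectin, which withholds zinc and manganese. Slpi restrains neutrophil proteases, and the polymeric immunoglobulin receptor carries IgA across the epithelium. Serum amyloid A proteins rise in plasma and at mucosal surfaces during inflammation. In adult rodents many of these genes respond to bacteria or to cytokines, whereas the arrays here were taken before birth.

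The 3 Reg3 genes lie together on rat chromosome 4, with the pseudogene Reg3b-ps1 between Reg3b and Reg3a and Reg1a between Reg3a and Reg3g. No annotated gene separates S100a8 and S100a9 on chromosome 2. Promoters of the Reg3 genes are shown because these neighbouring relatives changed differently, and those of Saa3 and S100a9 because these members rose most in lung. Each is the 250 bases before the annotated start, 5′ to 3′ on the gene's strand, from RefSeq on GRCr8, and 8 of the 10 members matched this table (Slpi and S100a8 did not). Reg3a has 2 start sites in the table, and the first was used. Capitals mark matches to 4 searched motifs on either strand, namely the TATA box (TATAAA), a STAT motif (TTCNNNGAA), a C/EBP motif (TTNNGNAAT) and an NF-kappaB motif (GGG, then any 5 bases, then CC), and where matches overlap the capitals run together.
Reg3a, chr4:112430147-112430396, plus strand: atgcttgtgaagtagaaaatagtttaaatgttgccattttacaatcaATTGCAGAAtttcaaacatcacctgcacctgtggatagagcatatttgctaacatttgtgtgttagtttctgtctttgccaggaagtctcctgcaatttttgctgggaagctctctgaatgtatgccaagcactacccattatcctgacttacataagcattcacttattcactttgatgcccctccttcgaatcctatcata
Reg3b, chr4:112419526-112419775, plus strand: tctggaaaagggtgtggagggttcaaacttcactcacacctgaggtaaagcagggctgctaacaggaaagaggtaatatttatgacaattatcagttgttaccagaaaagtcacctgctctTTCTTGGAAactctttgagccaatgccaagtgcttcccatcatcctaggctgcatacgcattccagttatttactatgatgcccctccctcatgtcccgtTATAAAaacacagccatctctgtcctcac
Reg3g, chr4:112484739-112484988, minus strand: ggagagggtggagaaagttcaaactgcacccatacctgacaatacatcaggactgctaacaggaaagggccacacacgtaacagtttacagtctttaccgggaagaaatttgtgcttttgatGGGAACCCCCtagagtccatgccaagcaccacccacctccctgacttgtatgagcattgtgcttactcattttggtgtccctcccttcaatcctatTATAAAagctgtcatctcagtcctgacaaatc
Saa3, chr1:106358431-106358680, minus strand: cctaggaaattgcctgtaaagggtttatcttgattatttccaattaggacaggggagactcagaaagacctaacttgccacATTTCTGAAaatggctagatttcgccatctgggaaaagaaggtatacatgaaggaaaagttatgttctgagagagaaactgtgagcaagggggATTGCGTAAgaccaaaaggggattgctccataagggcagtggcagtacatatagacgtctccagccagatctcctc
S100a9, chr2:178490623-178490872, minus strand: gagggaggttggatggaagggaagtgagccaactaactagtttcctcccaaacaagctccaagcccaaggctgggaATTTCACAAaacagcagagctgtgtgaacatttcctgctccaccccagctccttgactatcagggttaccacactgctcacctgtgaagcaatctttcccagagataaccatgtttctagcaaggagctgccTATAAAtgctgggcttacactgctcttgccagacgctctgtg
After global alignment the Reg3 promoters were identical at 71.9% (Reg3a and Reg3b), 71.2% (Reg3a and Reg3g) and 68.8% (Reg3b and Reg3g) of aligned bases, against 53.9% to 67.0% for the other pairs of members. Reg3b held a TATA box at -29 to -24 and a STAT match at -129 to -121, and Reg3g a TATA box at -32 to -27 and an NF-kappaB match at -128 to -119. Reg3a held a C/EBP match at -203 to -195. The last bases of its window resemble those just before the TATA box in Reg3g, and its second start was not searched. Its positions and its lack of a TATA match therefore depend on the start used. Saa3 held C/EBP matches at -169 to -161 and -76 to -68, and S100a9 a TATA box at -42 to -37 and a C/EBP match at -174 to -166. Of 27457 rat promoters of the same length, 13.1% hold the TATA box, 7.52% the STAT motif, 10.7% the C/EBP motif and 43.5% the NF-kappaB motif, so a match is a description of the letters and no evidence of binding.

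Values are log2 of the deposited normalized intensity. The median of all such values was 7.89, and a member below it is called dim, since no detection calls were used. Because probe sets differ in their response, a level is compared between groups and not between genes. A gene was called where limma's Benjamini-Hochberg adjusted p over all 14217 genes was under 0.05 and the difference was at least 2-fold (a log2 difference of at least 1). Array medians lay between 220 and 264 intensity units. A set of 7 arrays taken to hold more transcripts of other tissues was left out as an alternative. They were intestine E16 replicates 6, 8 and 9, intestine E20 replicate 9 and lung E20 replicates 1, 6 and 8. Lung E20 replicate 6 was high in mesothelium genes and not in liver genes. In intestine E16 the mean of 20 exocrine pancreas genes had a median of 6.60 and reached 7.47, 7.75 and 7.62 in replicates 6, 8 and 9, and that of 21 liver genes had a median of 7.21 and reached 8.70 in replicate 9. Leaving these 7 arrays out kept every age call of the members described here.

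At E20 the lung had higher Saa3, S100a9, S100a8, Lcn2 and Pla2g2a than at E16, and lower Reg3a. The intestine had higher Saa3, Reg3b, Slpi and Lcn2 at E20 and lower Pla2g2a. Of the 10 members, 5 were called higher and 1 lower in lung, where 11.8% of all genes were called (7.15% higher and 4.63% lower). In intestine 4 were called higher and 1 lower, beside 15.1% of all genes (8.79% higher and 6.26% lower). The same shares of all genes apply to the counts called between ages in the gene lists below. The median log2 difference of the members was 1.04 in lung and 0.66 in intestine, against -0.0060 and -0.086 over all genes. Saa3 and Lcn2 were called higher in both organs, and Pla2g2a was called in opposite directions. Reg3g and Pigr were called in neither.

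**Figure D1:**
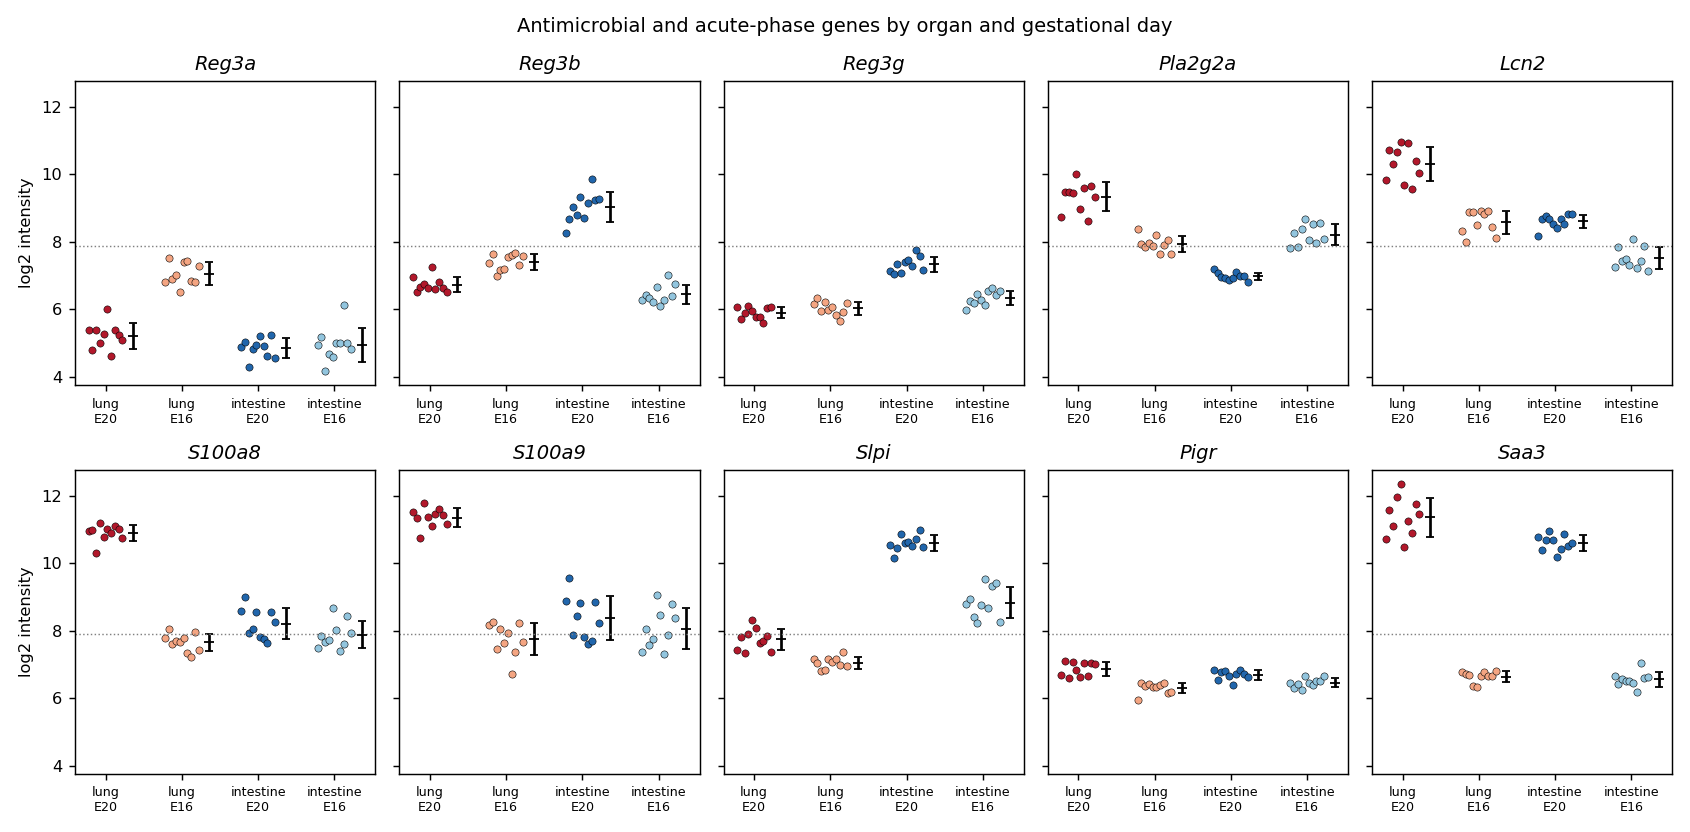
Log2 intensity (y axis) of each of the 10 genes in lung and intestine at E20 and E16; each point is an array (10 per group), bars are the mean ± SD, and the dotted line is the median of all values (7.89). Saa3 stands above the line at E20 and below it at E16 in both organs, S100a8 and S100a9 are highest in lung at E20, and Reg3a, Reg3g and Pigr stay below the line in all 40 arrays.

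Among the Reg3 lectins, Reg3b had the largest difference in intestine, ahead of Reg3g, which was higher in all E20 arrays but just under 2-fold. In intestine E20 its log2 intensity ran from 8.28 to 9.88 with a median of 9.09, against 6.11 to 7.01 with a median of 6.37 in intestine E16. All 10 E20 arrays were above all 10 E16 arrays, as was the case in one direction or the other for 37.6% of all genes. The log2 difference was 2.59 (SE 0.13, limma adjusted p = 7.54e-21), a 6.02-fold rise. In lung Reg3b was not called, with 6.74 ± 0.23 at E20 and 7.41 ± 0.23 at E16 (SD, n = 10 each; log2 difference -0.67, SE 0.13, limma adjusted p = 2.41e-05), and the arrays overlapped. Its highest lung E20 value, 7.27, was in replicate 6.

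Reg3a, a close relative that lies beside it, was dim in every group and was called in lung. In lung E20 it ran from 4.62 to 6.0 with a median of 5.26, against 6.51 to 7.53 with a median of 6.95 in lung E16. The 2 lung groups did not overlap (31.1% of all genes did not overlap between the lung ages), and Reg3a fell by 1.83 on the log2 scale (SE 0.17, limma adjusted p = 6.93e-13). It was the 75th lowest of the 14217 lung differences. In intestine it stood at 4.86 ± 0.30 at E20 and 4.95 ± 0.51 at E16 (SD, n = 10 each), with a log2 difference of -0.09 and a 95% confidence interval of -0.43 to 0.24. That difference was 0.02 after quantile normalization, 0.08 with array weights and 0.05 without the 7 arrays, so it has no settled direction. The highest intestine E16 value, 6.14, belongs to replicate 8, the array with the most pancreas transcripts, and the next was 5.18.

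Reg3g, the third lectin of the cluster, lay just under the threshold in intestine. Its log2 intensity ran from 7.06 to 7.76 in intestine E20, with a median of 7.32, and from 5.98 to 6.64 in intestine E16, with a median of 6.35. The groups did not overlap, and the difference was 0.99 (SE 0.09, limma adjusted p = 5.54e-13), a 1.99-fold higher level. It passed the 2-fold threshold after quantile normalization (1.09), with arrays centred on their median (1.04) and with array weights (1.01). In lung Reg3g stood at 5.91 ± 0.17 at E20 and 6.03 ± 0.20 at E16 (SD, n = 10 each), a log2 difference of -0.12 with an interval of -0.30 to 0.06.

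The change between ages differed between lung and intestine for all 3 lectins. The lung change minus the intestine change was -3.26 for Reg3b (SE 0.19, limma adjusted p = 7.96e-19), -1.74 for Reg3a and -1.11 for Reg3g, and each was called, where 17.6% of all genes were called (9.13% higher and 8.48% lower). Over all genes this split was 1298 higher and 1205 lower, with a median of 0.032, and 1081 higher and 1466 lower with arrays centred, with a median of -0.098. When the fit asked for more than 2-fold, Reg3g was no longer called. Reg3 genes are also made by the exocrine pancreas, and the mean of its 20 measured genes lay at 6.62 to 6.94 in intestine E20 and 6.26 to 7.75 in intestine E16. Of those 20 genes 2 rose in intestine, Zg16 and Cela1, and the median was -0.22. The 4 that fell were amylase Amy2a3 (-2.37), carboxypeptidase Cpa1 (-1.94), Pnliprp1 (-1.62) and Ctrb1 (-1.21). These 4 varied widely in intestine E16, with SDs of 2.91, 1.52, 2.18 and 2.04, against 0.34, 0.20, 0.16 and 0.24 in intestine E20. The E16 pancreas mean was high in replicates 6, 8 and 9 and at most 6.705 in the other arrays, so the falls are not a settled change with age. Zg16 is also a goblet cell product. The part of pancreas in the Reg3 values was not tested. Without the 7 arrays the Reg3b rise was again 2.59.

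Across arrays of a group, Reg3a and Reg3b correlated in lung E20 (Pearson r = 0.80, permutation p = 0.00551, adjusted over 36 relations 0.0331; Spearman rho = 0.77, permutation p = 0.0123, n = 10). Without the 2 arrays farthest from the median of Reg3b r was 0.46, and without replicates 1, 6 and 8 it was 0.27 (exact permutation p = 0.553, n = 7), so the relation rests on those arrays. Reg3b and Reg3g correlated at r = 0.71 in intestine E20 (permutation p = 0.0198, adjusted 0.085; rho = 0.64, permutation p = 0.0539; 0.40 without the 2 farthest), which did not pass. Of the 12 relations of a Reg3 gene with the pancreas mean, Reg3a in intestine E16 (r = 0.66, permutation p = 0.0227, adjusted 0.085; rho = 0.44, permutation p = 0.205; 0.33 without the 2 farthest) and Reg3g in intestine E20 (r = 0.69, permutation p = 0.026, adjusted 0.085; rho = 0.64, permutation p = 0.0546; 0.34 without the 2 farthest) had the lowest p, and neither passed.

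Pla2g2a, the group IIA secreted phospholipase that Paneth cells release in adult rodents, was called in both organs with opposite signs. In lung E20 it ran from 8.62 to 10.02 with a median of 9.47, against 7.63 to 8.37 with a median of 7.91 in lung E16. In intestine E20 it ran from 6.80 to 7.19 with a median of 6.97, against 7.82 to 8.67 with a median of 8.19 in intestine E16. Neither pair of groups overlapped: lung rose by 1.40 (SE 0.13, limma adjusted p = 6.42e-13) and intestine fell by 1.24 (SE 0.13, limma adjusted p = 1.42e-11). The difference between these changes was 2.64 (SE 0.18, limma adjusted p = 1.49e-16), the 170th highest of 14217. With limma asked for more than a 2-fold change, the intestinal fall was not called (adjusted p = 0.272).

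Of 8 other measured secreted phospholipases A2, 1 rose in lung, Pla2g1b, the pancreatic-type enzyme (4.62, SE 0.12, limma adjusted p = 3.90e-30), and 1 in intestine, Pla2g2d (1.05, SE 0.10). Their medians were 0.17 in lung and -0.04 in intestine. Of 5 measured Paneth cell genes besides Pla2g2a none was called in intestine, with a median difference of 0.36, and 2 were called higher in lung, Lyz2 (3.90) and Defa5 (1.60, SE 0.43, limma adjusted p = 0.0013), with a median of 0.20. Lyz2 is also a macrophage gene and, in mice, an alveolar type II gene. The defensin Defa5 stood at 9.09 ± 1.01 in lung E20 and 7.48 ± 0.73 in lung E16 (SD, n = 10 each). In intestine it stood at 7.27 ± 1.11 in E20 and 6.72 ± 1.19 in E16, so that its intestinal means were dim. RatNP-3b, a defensin of the neutrophil list, had the same order of group means. It stood at 9.95 ± 1.00 in lung E20, 8.05 ± 0.73 in lung E16, 7.48 ± 1.37 in intestine E20 and 7.05 ± 1.29 in intestine E16. The part of neutrophils in the Defa5 values was not tested.

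Lcn2 rose in both organs. In lung E20 it ran from 9.57 to 10.95 with a median of 10.36, against 8.01 to 8.91 with a median of 8.67 in lung E16. In intestine E20 it ran from 8.17 to 8.83 with a median of 8.67, against 7.14 to 8.10 with a median of 7.45 in intestine E16. The ages separated fully in each organ, though in intestine the lowest E20 array (8.17) was close to the highest E16 array (8.10). The log2 difference was 1.73 in lung (SE 0.16, limma adjusted p = 4.92e-13) and 1.09 in intestine (SE 0.16, limma adjusted p = 4.89e-08), and the intestinal rise was not called where more than 2-fold was asked for (adjusted p = 1). These changes differed by 0.64 (SE 0.22, limma adjusted p = 0.0101), which is under 2-fold. Lung E16 minus intestine E20 was -0.03 (limma adjusted p = 0.89).

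S100a8 and S100a9 rose in lung and were not called in intestine. S100a9 ran from 10.74 to 11.77 in lung E20, with a median of 11.40, against 6.73 to 8.27 in lung E16, with a median of 7.79. S100a8 ran from 10.30 to 11.18 in lung E20, with a median of 10.96, against 7.21 to 8.04 in lung E16, with a median of 7.68. Neither overlapped between the ages. The log2 differences were 3.60 for S100a9 (SE 0.22, limma adjusted p = 6.12e-18), a 12.1-fold rise, and 3.24 for S100a8 (SE 0.15, limma adjusted p = 6.59e-22), a 9.47-fold rise. They were the 61st and 81st highest of the lung differences.

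In intestine the pair varied more between arrays than between ages. S100a9 stood at 8.38 ± 0.65 in E20 and 8.06 ± 0.60 in E16, and S100a8 at 8.20 ± 0.45 in E20 and 7.88 ± 0.41 in E16 (SD, n = 10 each). The differences were 0.32 (95% confidence interval -0.13 to 0.77, limma adjusted p = 0.202) and 0.33 (0.02 to 0.64, limma adjusted p = 0.0504). The lung change exceeded the intestine change by 3.28 for S100a9 (SE 0.32, limma adjusted p = 4.35e-12) and by 2.91 for S100a8 (SE 0.21, limma adjusted p = 1.87e-15).

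**Figure D2:**
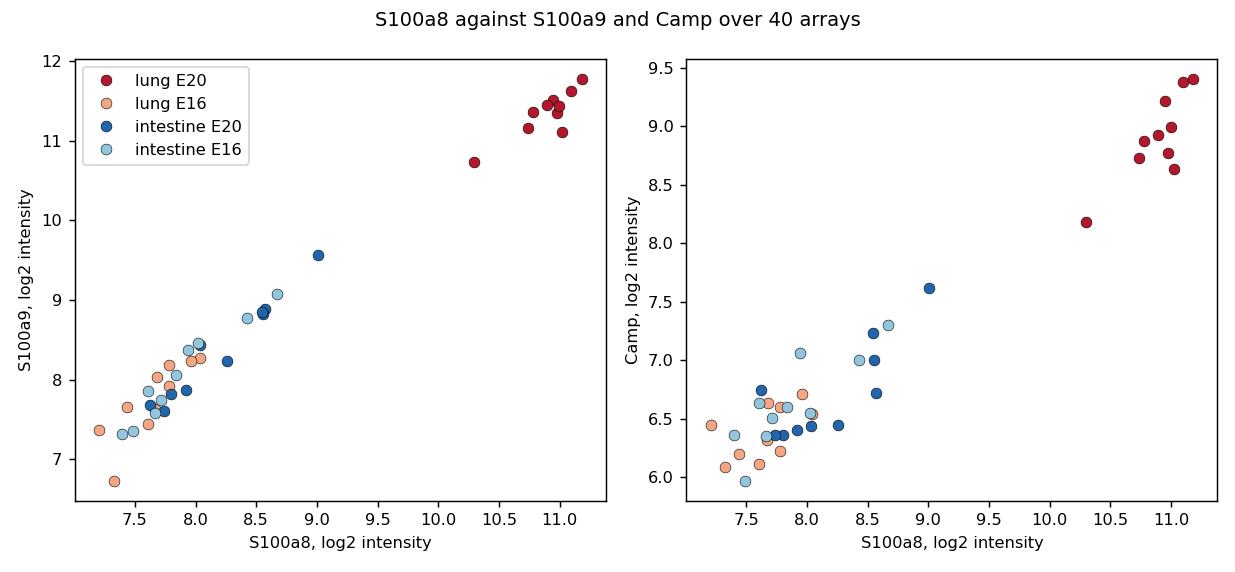
Log2 intensity of S100a9 (left, y axis) and Camp (right, y axis) against that of S100a8 (x axis) over 40 arrays, coloured by group. The 10 lung E20 arrays stand apart at the upper right, and within the other groups arrays high in S100a8 are also high in S100a9.

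The 2 genes varied together from array to array. Within groups Pearson's r was 0.98 in intestine E20 (permutation p = 3e-05, adjusted 0.00054; rho = 0.96, permutation p = 4e-05; n = 10) and 0.97 in intestine E16 (permutation p = 1e-05, the smallest these permutations can give, adjusted 0.00036; rho = 0.96, permutation p = 5e-05; n = 10). It was 0.96 in each without the 2 farthest arrays. In lung E16 r was 0.84 (permutation p = 0.00187, adjusted 0.0168; rho = 0.92, permutation p = 0.00053; n = 10; 0.83 without the 2 farthest). In lung E20 r was 0.86 (permutation p = 0.00281, adjusted 0.0202; n = 10) but rho was 0.61 (permutation p = 0.0661) and r was 0.44 without the 2 farthest arrays, so there it rests on them. Without replicates 1, 6 and 8 it was 0.97 (exact permutation p = 0.00238, adjusted 0.0208, n = 7).

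Both genes are abundant in neutrophils and monocytes, and the markers of these cells were read beside them. Of 11 neutrophil genes besides the members, 3 rose in lung: the cathelicidin Camp (2.52, SE 0.15, limma adjusted p = 4.62e-18) and the defensins RatNP-3b (1.90, SE 0.48) and Np4 (1.05, SE 0.26). None was called in intestine. Their mean ran from 6.99 to 7.90 in lung E20 and 6.39 to 6.83 in lung E16, and from 6.47 to 7.12 in intestine E20 and 6.39 to 7.20 in intestine E16. The receptors Csf3r (0.19, SE 0.098) and Cxcr2 (0.35, SE 0.11) and the collagenase Mmp8 (0.84, SE 0.16) were not called in lung and were dim in all 4 groups. In lung E20 the means were 6.59 for Csf3r, 6.03 for Cxcr2 and 6.03 for Mmp8, and 7 of the 11 markers were dim there.

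S100a8 followed the mean of those 11 genes within intestine E20 (r = 0.87, permutation p = 0.00131, adjusted 0.0157; rho = 0.73, permutation p = 0.0206; n = 10; 0.74 without the 2 farthest). In lung E20 r was 0.69 (permutation p = 0.0259, adjusted 0.085; rho = 0.68, permutation p = 0.0352; 0.69 without the 2 farthest) and did not pass. In intestine E16 r was 0.72 (permutation p = 0.02, adjusted 0.085; rho = 0.59, permutation p = 0.0795; n = 10) and 0.03 without the 2 farthest arrays. Without replicates 6, 8 and 9 it was 0.94 (exact permutation p = 0.00595, adjusted 0.0357, n = 7). In lung E16 r was 0.21 (permutation p = 0.577, adjusted 0.735, n = 10) and 0.04 without the 2 farthest arrays. Its rho was 0.12 (permutation p = 0.758), so the relation was not seen in that group. Of 18 macrophage and monocyte genes 7 rose in lung, led by the lysozyme Lyz2 (3.90, SE 0.11) and the scavenger receptor Cd163 (2.86, SE 0.12), with a median of 0.73, and 5 rose in intestine, with a median of 0.39. The part of such cells in the S100 values was not tested.

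Other S100 genes rose in lung as well. Of 12 measured, 6 were called higher and none lower in lung, with a median of 1.01, and 1 was called higher in intestine, with a median of 0.04. S100pbp, a binding protein that the list also held and that is no S100 gene, was left out of these counts after the values were seen (-0.28 in lung and -0.84 in intestine, neither called). The largest lung differences were those of S100g, a vitamin D-dependent calcium-binding protein (4.65, SE 0.19), S100a14 (3.21), S100a6 (2.63) and S100a4 (1.87). The gene called in intestine was S100g too (2.46, SE 0.19).

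Slpi was the member with the clearest intestinal bias at both ages. In intestine E20 it ran from 10.14 to 10.99 with a median of 10.58, against 8.24 to 9.54 with a median of 8.76 in intestine E16. The groups did not overlap, and it rose by 1.76 (SE 0.14, limma adjusted p = 4.06e-15), a 3.40-fold change. In lung Slpi was dim in 8 of 10 arrays at E20 and in all 10 at E16, with 7.74 ± 0.31 and 7.05 ± 0.17 (SD, n = 10 each). The lung difference of 0.69 (SE 0.14, limma adjusted p = 2.15e-05) did not reach 2-fold. The lung change was lower than the intestine change by 1.07 on the log2 scale (SE 0.19, limma adjusted p = 5.34e-06), which was not called where more than 2-fold was asked for. The lung minus intestine difference was -2.86 at E20 (SE 0.14, limma adjusted p = 4.72e-22) and -1.78 at E16 (SE 0.14, limma adjusted p = 1.29e-14). The organs did not overlap at either age, as was the case for 34.1% of all genes at E20 and 19.3% at E16.

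Pigr stayed dim in all 40 arrays. It stood at 6.86 ± 0.20 in lung E20 and 6.30 ± 0.16 in lung E16, and at 6.69 ± 0.14 in intestine E20 and 6.45 ± 0.13 in intestine E16 (SD, n = 10 each). The lung arrays of the 2 ages did not overlap, yet the difference was 0.57 (SE 0.072, limma adjusted p = 4.25e-09), a 1.48-fold higher level. In intestine it was 0.23 (95% confidence interval 0.09 to 0.38). Epithelial genes rose widely over the same days, 13 of 17 in lung with a median of 1.69 and 16 of 17 in intestine with a median of 2.92. No relation of Pigr or Slpi with the epithelial mean passed within any group. Of 5 measured B and plasma cell genes, none was called in lung and 1 in intestine, where Jchain, the chain that joins IgA subunits for transport by the Pigr receptor, fell by 1.41 (SE 0.15, limma adjusted p = 7.75e-11).

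Saa3 showed the largest rise of the members in each organ. In lung E20 it ran from 10.48 to 12.36 with a median of 11.36, against 6.32 to 6.81 with a median of 6.67 in lung E16. In intestine E20 it ran from 10.19 to 10.95 with a median of 10.64, against 6.19 to 7.05 with a median of 6.54 in intestine E16. The ages did not come near each other in either organ, and all 20 E16 arrays were dim. The log2 difference was 4.72 in lung (SE 0.15, limma adjusted p = 7.85e-28), a 26.3-fold rise and the 23rd highest of 14217 genes. In intestine it was 4.05 (SE 0.15, limma adjusted p = 4.10e-26), a 16.5-fold rise and the 157th highest. Since the E16 values are dim, both folds depend on the background. The changes differed by 0.67 (SE 0.21, limma adjusted p = 0.0048), under 2-fold.

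**Figure D3:**
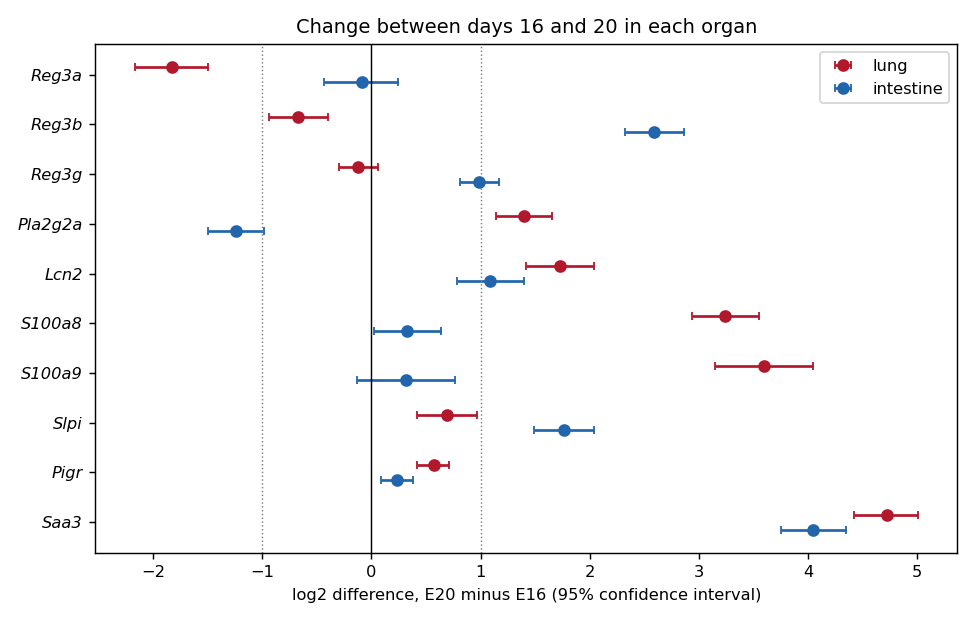
Log2 difference, E20 minus E16 (x axis), of each of the 10 genes in lung and in intestine, with 95% confidence intervals from the fit on 10 arrays per group; dotted lines mark a 2-fold change. Pla2g2a lies at 1.40 in lung and -1.24 in intestine, and Saa3 lies furthest right in each organ.

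In lung E20, Saa3, Lcn2 and Pla2g2a were low in the same arrays. Replicates 1, 6 and 8 had Saa3 at 10.48 to 10.88 against 11.10 to 12.36 in the other 7, Lcn2 at 9.57 to 9.83 against 10.04 to 10.95, and Pla2g2a at 8.62 to 8.99 against 9.33 to 10.02. Reg3b was the reverse, at 6.82 to 7.27 against 6.51 to 6.75, and S100a8 and S100a9 overlapped. These are the lung arrays of the omitted set. The mean of 21 liver genes was 8.26 and 8.33 in replicates 1 and 8, against 6.50 to 6.69 in the other 7. In replicate 6 it was 6.69, so that array had no excess of liver genes. The mean of 9 mesothelium genes was 10.63 in replicate 6, against 9.53 to 10.03 in the other 7. The means of alveolar type II genes (12.08 to 12.30 against 12.47 to 12.75) and of club cell genes (9.39 to 9.56 against 9.59 to 10.08) were lower there too, and the part of these differences in tissue content was not tested. Without the 7 arrays the lung differences were 5.00 for Saa3, 1.99 for Lcn2 and 1.63 for Pla2g2a.

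**Figure D4:**
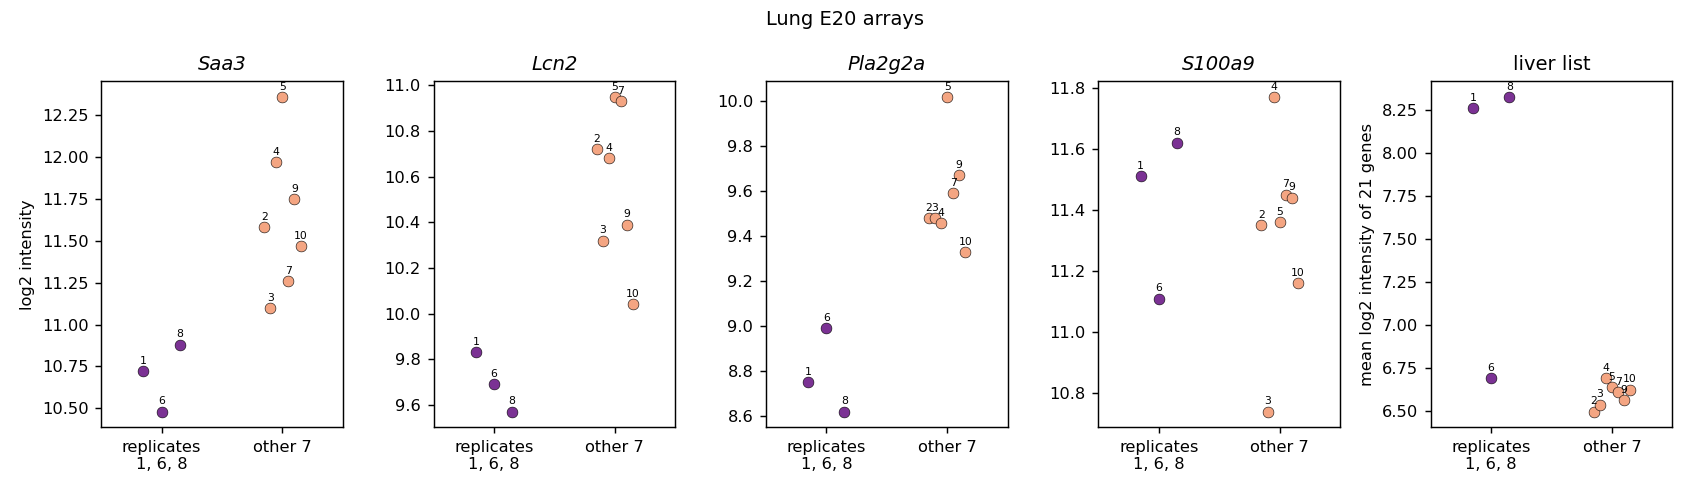
Log2 intensity of Saa3, Lcn2, Pla2g2a and S100a9, and the mean log2 intensity of 21 liver genes, in the 10 lung E20 arrays; points are arrays labelled by replicate number, with replicates 1, 6 and 8 at the left of each panel and the other 7 at the right. The first 3 genes are lower in replicates 1, 6 and 8, S100a9 is not, and the liver genes are high in replicates 1 and 8; each panel has its own y axis.

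Between organs, 7 members were called at E20 and 3 at E16. At E20, S100a9 (2.97), S100a8 (2.69), Pla2g2a (2.36) and Lcn2 (1.71) were higher in lung than in intestine, and Slpi (-2.86), Reg3b (-2.29) and Reg3g (-1.42) lower, where 16.1% of all genes were called (7.91% higher and 8.21% lower). None of the 7 overlapped between the organs, which held for 34.1% of all genes. Saa3 was 0.75 higher in lung and not called, and without the 7 arrays it was 1.02 and called. At E16, Reg3a (2.10) and Lcn2 (1.07) were higher in lung and Slpi (-1.78) lower, beside 5.13% of all genes (2.13% higher and 3% lower). The Lcn2 arrays overlapped between the organs at E16, and it was not called where more than 2-fold was asked for. Reg3b, at 0.97, was not called but passed the threshold after quantile normalization (1.17), centring (1.12) and array weights (1.01), and the direction of Pigr (-0.16) turned after quantile normalization (0.07).

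At E16 the organ comparison as a whole moved with the scaling: the median over all genes was -0.108, and 0.044 with arrays centred, and calls split into 303 higher and 427 lower, or 388 and 345 with arrays centred. Set in order of group means, lung E20 stood first for Saa3, S100a8, S100a9, Lcn2, Pla2g2a and Pigr, intestine E20 for Reg3b, Reg3g and Slpi, and lung E16 for Reg3a. Neighbours in this order that did not differ at an adjusted p under 0.05 were lung E16 and intestine E16 for Saa3, Pla2g2a, S100a8, S100a9 and Pigr, and lung E16 and intestine E20 for Lcn2. The same held for intestine E20 and E16 for S100a8, S100a9 and Reg3a, for lung E20 and intestine E16 for Reg3a, and for lung E20 and E16 for Reg3g.

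The genes most like a member were sought among 10918 genes (10919 for Reg3a, Reg3g and Pigr) that were not dim in every group. By deviations from the group means over 40 arrays, S100a8 was most like S100a9 (r = 0.932), the stefin Stfa3 (0.811) and RatNP-3b (0.784), and S100a9 most like S100a8, Stfa3 (0.843) and Camp (0.829). Saa3 was most like Lpcat1, a lipid-remodelling enzyme of surfactant synthesis (0.776), and Lcn2 most like the adhesion molecule Icam1 (0.753). Reg3b was most like Degs2 (0.698) and Morc4 (0.694), Slpi like Ifi27l2b (0.715), and Pla2g2a like Endod1 (0.673). Highest values for Reg3a, Reg3g and Pigr were 0.639, 0.637 and 0.581. Of the 45 pairs among the members, 5 reached 0.40, namely S100a8 with S100a9 (0.93), Pigr with Saa3 (0.47), and Pla2g2a with Lcn2 (0.45), Pla2g2a with Saa3 (0.43) and Lcn2 with Saa3 (0.41). These are descriptions over arrays that share organ, age and scaling.

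Other genes of a fixed mucosal defence list also rose in each organ. Not every gene of the list codes for a secreted defence protein. Guca2a (guanylin) is a gut peptide hormone, and Clec7a is a membrane receptor. Of 28 measured besides the members, 11 were called higher and none lower in lung (median 0.29), and 8 higher and 2 lower in intestine (median 0.17). In lung the collectins Sftpa1 (6.97) and Sftpd (5.81), which bind microbes in the airspace, led with the beta-defensin Defb4 (5.58, SE 0.23) and Lyz2 (3.90). In intestine the largest differences were those of Guca2a (guanylin, 6.21), the lectin Zg16 (5.55), Lypd8, which keeps flagellated bacteria off the colonic surface in mice (5.05), and the scavenger protein Dmbt1 (4.54). Rnase4, a secreted ribonuclease, was called higher in both lung (1.36) and intestine (1.46), and was picked out after its values were seen. The genes called lower in intestine were the chitinase-like Chi3l1 (-1.47) and Jchain. Markers of the cells that make several of these proteins moved over the same days: in lung 10 of 12 alveolar type II genes (median 3.99) and 8 of 10 club cell genes (median 2.24) were called higher, and in intestine 9 of 9 goblet cell genes (median 4.21) and 12 of 13 absorptive enterocyte genes (median 5.91). Zg16, Muc2 and Tff3 are in both the defence and the goblet list. Sftpa1 and Sftpd, which led in lung, are in both the defence and the alveolar type II list. Bpifa1 and Bpifb1, which were not called, are also in the club cell list. These counts are therefore not separate from those of the defence list, and the part of these cells in the defence values was not tested. Of the Reg and lectin relatives of the members, 2 were measured and neither was called, with medians of -0.24 in lung and -0.34 in intestine.

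Acute-phase plasma protein genes were read beside Saa3, and the medians of the 19 measured were 0.15 in each organ. In lung 4 were called higher and 1 lower, where 11.8% of all genes were called. In intestine 3 were called higher, where 15.1% of all genes were called. In lung these were ceruloplasmin, Cp (3.93, SE 0.09), the complement component C3 (3.53), haptoglobin, Hp (2.81, SE 0.14), and Lbp, which presents bacterial lipopolysaccharide (1.45), while albumin, Alb, fell by 2.93. In intestine they were Fga (3.97), Serpina1 (2.90) and C3 (2.26), and Hp stood at 7.08 ± 0.60 in E20 and 7.06 ± 0.18 in E16 (SD, n = 10 each). Alb varied widely, with an SD of 2.57 in lung E20 and 0.88 in lung E16, the liver-rich arrays included.

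Receptors, signalling genes and transcription factors were read from fixed lists. Some of them carry signals known to induce these members in adult animals. Over all genes, 11.8% were called in lung and 15.1% in intestine. Of 26 measured receptors, adaptors and cytokines, 3 rose in lung, Nod1 (1.38), Il6r (1.32) and Myd88 (1.24), with a median of 0.29. In intestine 5 rose, Ticam1 (2.71), Il18 (2.63), Nod1 (1.30), Myd88 (1.27) and Il6r (1.01), and Ripk2 fell by 1.02, with a median of 0.17. Of 26 transcription factors and their regulators, 8 rose in lung and 10 in intestine, none was called lower, and the median was 0.54 in each. Elf3 is also in the epithelial list, Spdef in the goblet list and Cebpa in the alveolar type II list. Those lists rose over the same days, and the part of these cells in the factor values was not tested. The largest differences in lung were those of Klf5 (2.89), Cebpa (2.78), Elf3 (2.10) and, level at 2.04, Cebpd, Irf7 and the NF-kappaB inhibitor Nfkbia, and in intestine those of Hnf4a (4.17), Elf3 (3.97), Cebpa (3.53) and Irf7 (3.06). Cebpd (1.47 in intestine) and Cebpb (1.21 in lung, 1.49 in intestine) were also called higher, and were picked out after their values were seen because the C/EBP motif was among those searched.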

How the data were processed

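Whole lung and intestine of rat embryos at E20 and E16 were measured on 40 arrays, 10 per group. The deposited table holds linear summary intensities for 31099 probe sets, made by the authors with RMA (background correction, normalization and probe summary), per the submitters' processing notes, with no version. Joint normalization of the organs and the genome build are not given in the sources used here. Intensities ran from 6.65 to 39901. Log2 was taken before any test; the deposited scale was linear where log2 values had been assumed. The platform annotation gave 20826 probe sets 1 symbol and 436 several; 57 were controls. Each gene was read by its brightest probe set (14217 genes).

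Limma 3.58.1 in R 4.3.3 was fitted to 4 group means over all 40 arrays, without covariates, and tested on simulated data. Arrays have no sequencing depth, and their number limits the precision. Members and gene lists were chosen with earlier results of these data known. The rule for named genes was all members, up to 4 called genes per list with the largest change, defining markers of other cell types, and the 3 genes most like a member. The text departs from it by naming every called gene of some short lists and fewer of the most alike genes, chosen after their values were seen. Lists exclude members. Within-group correlations (36) used permutation tests with 100000 resamples. P-values measure the spread between these arrays, which may be technical. Alternatives were other scalings, weights, tests, filters, probe set rules, blocks and the omission of 7 arrays.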

Additional observations from a re-analysis of the deposited data

Results flagged for a closer look

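Among 40 groups of 10 arrays (10 genes in 4 groups), 2 held an array far from the rest by Dixon's test, and chance alone flags about 1 in 20 groups. Reg3a in intestine E16 stood at 6.14 in replicate 8, with the next array at 5.18. S100a8 in lung E20 stood at 10.30 in replicate 3, with the next array at 10.74.

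The change between E16 and E20 differed between lung and intestine for 7 members, by limma's test of the lung change minus the intestine change: S100a9 (3.28), S100a8 (2.91) and Pla2g2a (2.64) changed more positively in lung, and Reg3b (-3.26), Reg3a (-1.74), Reg3g (-1.11) and Slpi (-1.07) less.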

How the results depend on the processing

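Under the alternatives, 504 recomputed member differences kept their direction and their side of the threshold, 7 became called, 5 lost their call and 4 turned. Each member has 1 probe set, so the probe set rules could not change its difference. The blocks, the fits on fewer groups, the 2-fold test and the filter also left the difference itself unchanged. Only the scalings, array weights and omission of the 7 arrays could turn a direction. The count of 504 is therefore no measure of how stable the directions are. Those that turned were uncalled: Reg3a in intestine (0.02 after quantile normalization, 0.08 with array weights, 0.05 without the 7 arrays) and Pigr between organs at E16 (0.07 after quantile normalization). Against a 2-fold change 3 members were called in intestine, where 5 were called in the main test. The filter for genes whose mean over the 40 arrays was above the median of all values kept 6 members. Reg3a, Reg3b, Reg3g and Pigr were thus not tested there, although Reg3b was above that median in all 10 intestine E20 arrays. For the lung change minus the intestine change, 4 of the 6 were called, against 7 of the 10. Counts of called genes over the 9 lists moved by over 1.5 times in 19 cases and stayed within it in 179. For lung and intestine arrays of 1 number and age, the correlation of deviations from the group means was over 0.1 in 8 of 10 pairs at E16 (up to 0.65), of which 5 correlated best with their own number, and in 2 of 10 pairs at E20, of which 1 did. This hints at shared numbers at E16, while not every pair passed 0.1 and 12 of all 20 shared the higher of a pair of sex-linked transcripts, so the numbers were not taken to pair the samples. With the replicate block by age and number (within-block correlation 0.107), or number as a fixed block, the members called numbered 5 in intestine and 6 in lung, with 7 for the change between organs and, comparing lung with intestine, 3 at E16 and 7 at E20, all as without it. The correlations past the threshold numbered 6 with all arrays and 6 without the 7 arrays, but they were not the same 6. Reg3a with Reg3b in lung E20 no longer passed (adjusted permutation p = 0.752). S100a8 with the neutrophil mean in intestine E16 did (adjusted permutation p = 0.0357). Signal near background limits Reg3a, Reg3g and Pigr, which were dim throughout, and the size of the Saa3 and Reg3b folds, whose lower groups were dim.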
